A study of Homo sapiens with 6 samples.

Results

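The genes of the proteasome, the protease complex that degrades ubiquitin-tagged proteins, were taken by name. Among the 59248 gene symbols in the table, 43 had the form PSMA to PSMG followed by a number, once the 5 genes of the interferon-inducible forms (PSMB8, PSMB9, PSMB10, PSME1 and PSME2) were set aside. They comprised 16 genes of the 20S core, 6 ATPases, 14 other 19S genes and 7 further genes (PSME, PSMF and PSMG). The rule itself rests on names and uses no measured value. Of the 43, 42 passed the expression filter. PSMB11, a beta subunit known from the thymus cortex, did not: it had 1 estimated count in overexpression replicate 2, 7 in vector replicate 3 and 0 in the other libraries.

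The proteasome works in the cytosol and nucleus. Its barrel, the 20S core, is built from rings of alpha and beta subunits, and 3 of the beta subunits carry the active sites. The 19S particle caps the core: its base holds a ring of ATPases (PSMC genes) that unfold substrates, and its lid and scaffold (PSMD genes) bind and strip ubiquitin. Other factors assemble the core or activate it without ubiquitin. Transcription of the subunit genes is known to be raised together by NFE2L1 (NRF1), a factor of the endoplasmic reticulum membrane that is freed when proteasome activity falls short.

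RNA was sequenced from 6 bulk libraries of Jurkat, an established human T-cell leukemia line, grown in RPMI1640 with serum. The genotype label PDCD1 28 OE (28 is a superscript there) marks 3 libraries that overexpress a splice isoform of the PD-1 gene, PDCD1, and the label vector marks the other 3. The growth protocol calls the cells of both groups Jurkat KO-1, a term the labels do not explain, and it is not stated whether each group is 1 clone. Whether the 3 libraries of a group are separate cultures is not stated either. The p-values therefore describe library-to-library spread, part or all of which may be technical.

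Libraries held 59911578 to 84220970 estimated counts. PDCD1 lay at 13.8 ± 1.03 CPM (estimated counts scaled to library size) in overexpression and 0.229 ± 0.011 CPM in vector (SD, n = 3), in the direction of the labels. All 12 T-cell markers examined passed the filter, with a summed level of 2700 to 2740 CPM in overexpression and 2830 to 3000 CPM in vector. Of these 12, 8 were lower and 2 higher by the test described below, against 23.4% and 22.6% of all genes tested. The near-equal sums hide large falls in CD2 and CD7, with log2 fold changes of -2.57 and -2.09. The 2 higher were ZAP70 (0.24) and TRBC1 (0.42). Markers of other lineages summed to at most 60.1 CPM (5 B-cell genes, nearly all CD79A), 6.27 CPM (4 natural killer genes), 1.96 CPM (5 myeloid genes), 1.58 CPM (5 epithelial genes, with EPCAM at 0 throughout) and 0.569 CPM (3 erythroid genes). Vector replicate 2 stood apart on the second principal component. It gave the lowest vector value in 24 of the 27 proteasome genes called lower below. Calls of named genes that change without it are given with both values.

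Proteasome genes were lower in the overexpression libraries. Of the 42 tested, 27 were called lower and 0 higher by edgeR's quasi-likelihood test at a Benjamini-Hochberg adjusted p of 0.05. Of all 21055 genes tested, 46.1% were called, 23.4% lower and 22.6% higher. Of the 9350 whose mean reached 1000 estimated counts, as did every proteasome gene tested except PSMA8, 62.5% were called, 37.5% lower and 25% higher. The median log2 fold change was -0.45 over the proteasome genes, 0.02 over all genes tested and -0.07 over those 9350. At an unadjusted p under 0.05, 2 proteasome genes were higher and 29 lower. DESeq2 called 1 higher and 28 lower, and limma-voom 0 higher and 27 lower. Without vector replicate 2, 29 were called lower and 2, PSMF1 and PSMG4, higher.

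The falls were partial. The genes called lower had 0.532 to 0.86 of their vector level. In 29 of the 42 genes the 3 overexpression libraries lay below all 3 vector libraries, against 28.6% of all genes tested and 42.1% of the 9350. In 2, PSMD8 and PSMF1, they lay above, against 30.1% and 29.6%. The summed level of the 43 genes was 4427, 4521 and 4458 CPM in overexpression and 6136, 5821 and 6102 CPM in vector, a ratio of 0.742. In these bulk libraries, fewer cells of a type and less RNA per cell cannot be told apart.

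**Figure D1:**
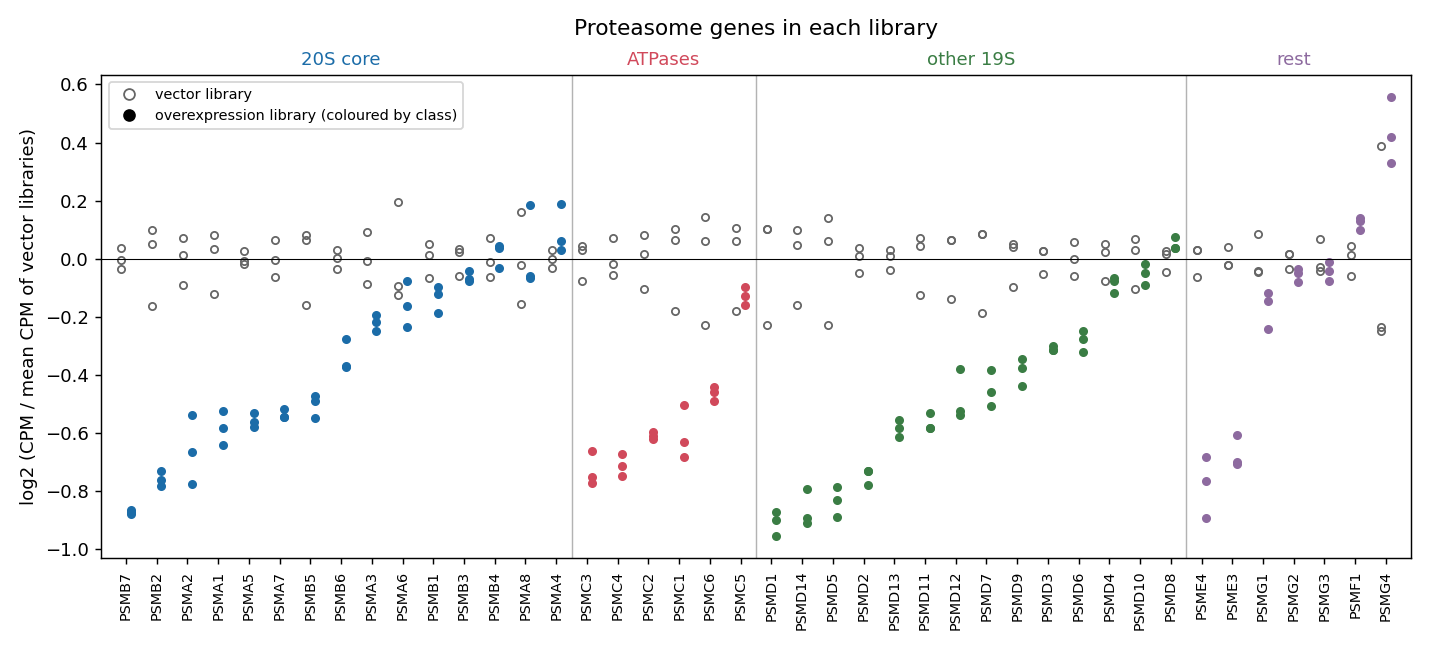
Level of each proteasome gene in every library, as log2 of CPM over the mean CPM of the 3 vector libraries, for the 42 genes that passed the filter, ordered by class and size of change. Open grey points are vector libraries and filled points overexpression libraries; in 29 genes all filled points lie below all open ones.

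The calls fell on the 4 classes as follows. Of the 6 ATPase genes 5 were lower, with a median log2 fold change of -0.60. Of the 14 other 19S genes 11 were lower (median -0.46), and of 15 core genes tested 9 were lower (median -0.34). Of the 7 further genes 2 (28.6%) were lower (median -0.05). That share lies between the 23.4% of all genes tested and the 37.5% of the 9350 above that were lower. The same shares apply beside the counts given below for the rings, the lid, the chaperones and the activators. No test of one class against another was made. The ratio of summed levels was 0.688 for the ATPases, 0.710 for the other 19S genes, 0.777 for the core and 0.799 for the further genes.

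**Figure D2:**
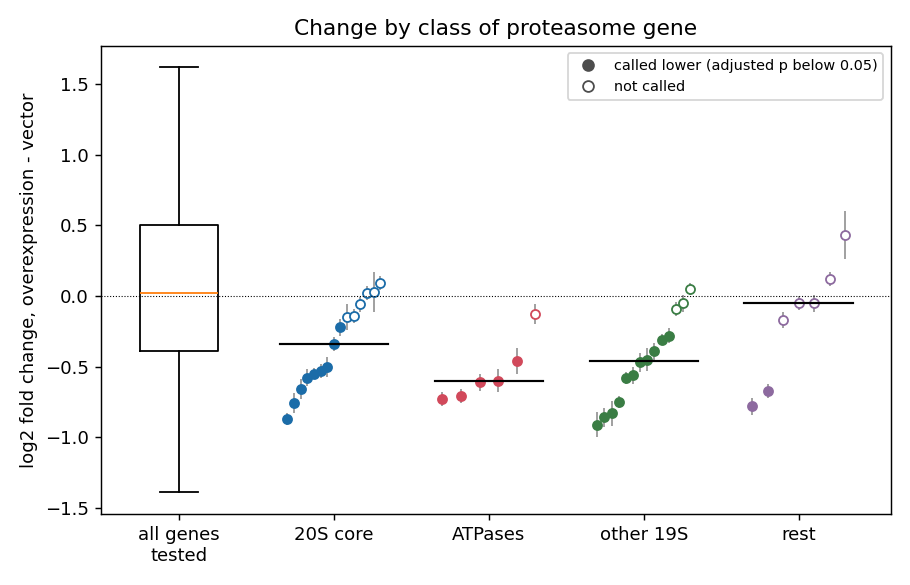
Log2 fold change (overexpression minus vector) of each proteasome gene by class, with its SE; filled points were called lower, open points were not called and black lines are class medians. The box at the left gives the quartiles of all 21055 genes tested, with whiskers at the 5th and 95th percentiles; the medians are -0.34 for the core, -0.60 for the ATPases, -0.46 for the other 19S genes and -0.05 for the rest.

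In the alpha ring, whose subunits form the gate of the core, 5 of 7 genes were lower. PSMA5 (chromosome 1, 109399031 to 109426427, minus strand, hg38) lay at 88.5, 90.5 and 87.4 CPM in overexpression and 133, 129 and 130 CPM in vector. This was a log2 fold change of -0.55 ± 0.04 (SE; edgeR adjusted p = 3.45e-05), and the groups lay far apart relative to their spread. PSMA7 (chromosome 20, 62136735 to 62143440, minus strand) lay at 159, 162 and 159 CPM against 231, 242 and 222 CPM, a change of -0.53 ± 0.05 (edgeR adjusted p = 6.43e-05). PSMA1 (chromosome 11, 14504874 to 14643635, minus strand) lay at 149, 155 and 143 CPM against 228, 205 and 236 CPM, a change of -0.58 ± 0.06 (edgeR adjusted p = 0.000175). In both genes the highest overexpression library was below the lowest vector library.

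PSMA2 was lower as well, by 0.66 on the log2 scale, and PSMA3 fell by 0.22. The PSMA3 call was lost without overexpression replicate 1 or 2 (edgeR adjusted p = 0.0582 and 0.0503). PSMA4 and PSMA6 were not called and their groups overlapped, with log2 fold changes of 0.09 ± 0.05 and -0.15 ± 0.09. PSMA8, the alpha subunit known from testis, was detected at 7.92 ± 0.81 CPM in overexpression and 7.78 ± 0.858 CPM in vector (SD, n = 3). Per transcript length it made up 2.66% ± 0.235 of the pair with PSMA7, its counterpart in other tissues, against 1.82% ± 0.238 in vector, while PSMA7 and not PSMA8 was called lower.

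Of the beta ring, 4 of 7 genes were lower, and all 3 genes of catalytic subunits were among them. PSMB7, the trypsin-like subunit (chromosome 9, 124353466 to 124415444, minus strand), lay at 95.9, 95.4 and 96.3 CPM in overexpression and 180, 171 and 175 CPM in vector. Its log2 fold change was -0.87 ± 0.04 (edgeR adjusted p = 4.76e-06), the largest of the core. PSMB5, the chymotrypsin-like subunit and main target of bortezomib, lay at 60.5, 58.1 and 61.2 CPM against 88.9, 76 and 89.9 CPM, a change of -0.50 ± 0.07 (edgeR adjusted p = 0.000734). PSMB6, the caspase-like subunit, lay at 69.5, 69.2 and 74.1 CPM against 89.9, 87.6 and 91.5 CPM, a change of -0.34 ± 0.05 (edgeR adjusted p = 0.000856). The groups of none of these 3 genes overlapped.

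Among the beta subunits without an active site, PSMB2 (chromosome 1, 35599544 to 35641844, minus strand) lay at 144, 149 and 146 CPM in overexpression and 256, 221 and 265 CPM in vector. This was a change of -0.76 ± 0.07 (edgeR adjusted p = 8.05e-05). PSMB4 did not follow: it lay at 203, 213 and 214 CPM against 218, 199 and 206 CPM, with a change of 0.02 ± 0.05. PSMB1 and PSMB3 were not called, at -0.14 ± 0.05 and -0.06 ± 0.05. PSMB1 lay just past the threshold (edgeR adjusted p = 0.0542), and its groups did not overlap. It was called lower with DESeq2 (adjusted p = 0.0339) and without vector replicate 2 (log2 fold change -0.18, edgeR adjusted p = 0.00451). DESeq2 size factors in edgeR (edgeR adjusted p = 0.0397) and removal of the GC and length trend (0.00872) also gave a lower call.

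Of the 5 interferon-inducible genes set aside by the rule, 4 were called higher, among them the 3 catalytic ones. This compares with 22.6% of all genes tested and 25% of the 9350 above. PSMB9, whose mean was under 1000 estimated counts, is not among the 9350. In immunoproteasomes PSMB8 takes the place of PSMB5, PSMB9 that of PSMB6 and PSMB10 that of PSMB7. The 5 genes had a median log2 fold change of 0.55, and 0 were lower, also with DESeq2, with limma-voom and at an unadjusted p under 0.05. PSMB9, PSMB8 and PSMB10 had log2 fold changes of 1.76 ± 0.12, 1.11 ± 0.13 and 0.55 ± 0.10 (edgeR adjusted p = 1.87e-05, 0.000272 and 0.00325). On chromosome 6, PSMB8 (32840717 to 32844703, minus strand) and PSMB9 (32844136 to 32859585, plus strand) overlap at their starts. Whether they share counts was not tested. Per transcript length, PSMB8 made up 58.9%, 59.5% and 58.7% of its pair with PSMB5 in overexpression and 33.4%, 28.9% and 33.1% in vector. PSMB9 made up 24% ± 1.89 of its pair against 6.87% ± 0.51, and PSMB10 16% ± 0.679 against 6.67% ± 0.816 (SD, n = 3). In each pair the share of the inducible gene was higher in all overexpression libraries than in any vector library. An exact two-sided permutation test of 3 libraries against 3 cannot give a p below 0.1. PSME1 and PSME2, which form the PA28 activator induced by interferon, had log2 fold changes of 0.07 ± 0.05 and 0.28 ± 0.07, and only the latter was called (edgeR adjusted p = 0.0125). The PSME2 call was lost without overexpression replicate 2 (edgeR adjusted p = 0.053) and with the GC and length trend removed (0.0514), and its 40 neighbouring genes had a median of 0.33. The neighbours' median was 0.27 for PSMB8 and PSMB9 and 0.02 for PSMB10.

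**Figure D3:**
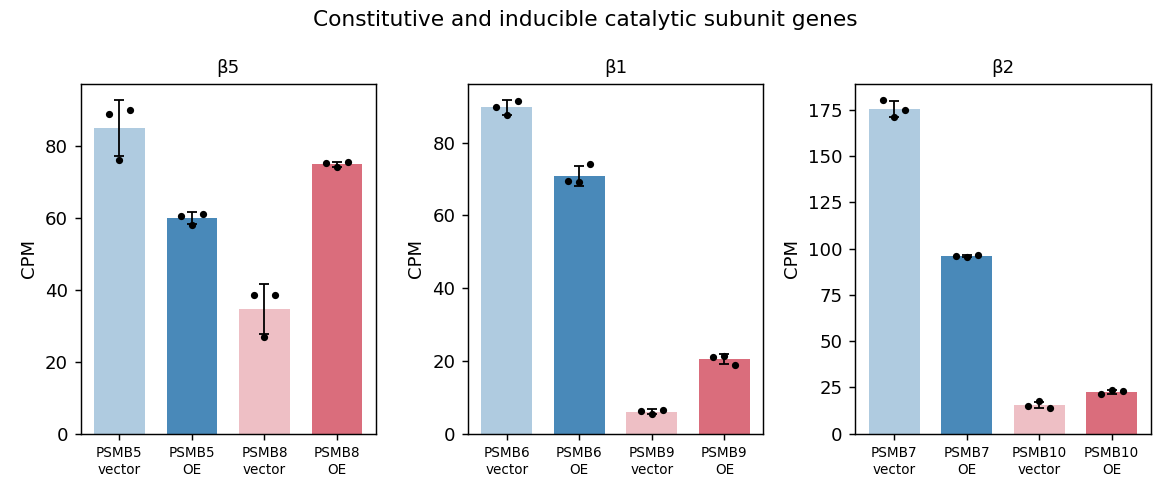
CPM of the constitutive catalytic subunit genes (blue) and of the inducible genes whose products replace them (red) at the 3 catalytic positions, in vector (pale) and overexpression (dark) libraries. Bars start at 0 and give the mean, error bars the SD and points the 3 libraries; each blue gene is lower and each red gene higher in overexpression.

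The ATPases, which thread substrates into the core, were the class with the lowest median. PSMC4 (chromosome 19, 39971005 to 39981441, plus strand) lay at 74.2, 76 and 78.2 CPM in overexpression and 131, 120 and 123 CPM in vector, a change of -0.71 ± 0.05 (edgeR adjusted p = 2.35e-05). PSMC3 (chromosome 11, 47418769 to 47426473, minus strand) lay at 137, 139 and 148 CPM against 241, 222 and 239 CPM, a change of -0.73 ± 0.05 (edgeR adjusted p = 2.4e-05). Both had about the same fractional fall, and their groups were well separated. PSMC2 lay at 97.5, 95.9 and 96.6 CPM against 156, 137 and 149 CPM, a change of -0.61 ± 0.06 (edgeR adjusted p = 7.79e-05). PSMC6 lay at 58, 57.3 and 56.1 CPM against 82, 67.1 and 86.9 CPM, a change of -0.46 ± 0.09 (edgeR adjusted p = 0.00382). Vector replicate 2 was nearest to the overexpression libraries in these genes but did not reach them.

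PSMC1 lay at 71, 77.6 and 68.6 CPM in overexpression and 115, 97.1 and 118 CPM in vector, a change of -0.60 ± 0.08 (edgeR adjusted p = 0.000623). Its value is less certain than the others: 75.8% of its annotated exon bases lie opposite NRDE2, which had a log2 fold change of -0.06, and the strand setting is unknown. In addition, 13 PSMC1 pseudogene rows held counts of their own that equalled 10.4% to 13.4% of the PSMC1 counts. PSMC5 was not called, at 137, 140 and 134 CPM against 156, 132 and 161 CPM (-0.13 ± 0.07, edgeR adjusted p = 0.182). Its groups overlapped through vector replicate 2, without which it was called lower (log2 fold change -0.22, edgeR adjusted p = 0.000739). Of its exon bases, 19.5% lie opposite FTSJ3. In all, 10 proteasome genes share over 10% of their exon bases with another annotated gene. Besides PSMC1 and PSMC5 these are PSMA1, PSMA2, PSMA6, PSMD1, PSMD7, PSMD9, PSMG2 and PSMG4. PSMD7 shares 30.7% with a gene on the other strand. PSMA1, PSMA2, PSMA6 and PSMD9 share 24.7%, 14.6%, 14.1% and 14.9% with a gene on the same strand.

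Among the other 19S genes, both scaffolds of the base were lower. PSMD1, a scaffold of the base (chromosome 2, 231056864 to 231172827, plus strand), lay at 110, 104 and 108 CPM in overexpression and 216, 172 and 216 CPM in vector. Its change was -0.91 ± 0.09 (edgeR adjusted p = 9.75e-05), the largest fall of the 42 genes tested. PSMD2, the other scaffold (chromosome 3, 184298709 to 184309054, plus strand), lay at 271, 262 and 271 CPM against 461, 435 and 453 CPM, a change of -0.75 ± 0.04 (edgeR adjusted p = 8.8e-06). Both scaffold genes were thus lower in every overexpression library. PSMD4, the intrinsic ubiquitin receptor, was not: it lay at 136, 141 and 140 CPM against 150, 153 and 140 CPM, a change of -0.09 ± 0.05 (edgeR adjusted p = 0.172). PSMD4 was called lower only in the fit with the GC and length trend removed (-0.15, edgeR adjusted p = 0.015).

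Of 8 lid genes 7 were lower. PSMD14, the deubiquitinase of the lid (chromosome 2, 161308038 to 161411717, plus strand), lay at 57.2, 62 and 57.9 CPM in overexpression and 111, 96.2 and 115 CPM in vector, a change of -0.86 ± 0.07 (edgeR adjusted p = 5.8e-05). PSMD13 (chromosome 11, 236546 to 252984, plus strand) lay at 144, 147 and 141 CPM against 217, 210 and 220 CPM, a change of -0.58 ± 0.04 (edgeR adjusted p = 2.64e-05). PSMD11, a lid subunit known to promote assembly of the whole complex (chromosome 17, 32444261 to 32483318, plus strand), lay at 170, 164 and 164 CPM against 253, 225 and 258 CPM. Its change was -0.56 ± 0.06 (edgeR adjusted p = 0.00015). PSMD12, PSMD7, PSMD3 and PSMD6 fell by 0.47, 0.45, 0.31 and 0.28 on the log2 scale. PSMD8 was the exception, at 147, 151 and 147 CPM against 146, 145 and 139 CPM; its overexpression values lay just above all vector values, and the difference was not called (edgeR adjusted p = 0.375).

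The assembly factors came next. Of the 3 chaperones of the 19S base, PSMD5 and PSMD9 were lower, by 0.83 and 0.39 on the log2 scale, and PSMD10 (gankyrin) was not called, at -0.05 ± 0.06. Of the 4 chaperones of the 20S core, PSMG1 to PSMG4, edgeR called 0 in either direction. At an unadjusted p under 0.05, 1 was higher (PSMG4) and 1 lower (PSMG1), and DESeq2 called PSMG4 higher and limma-voom none. PSMG1, PSMG2 and PSMG3 had log2 fold changes of -0.17 ± 0.06, -0.05 ± 0.05 and -0.05 ± 0.06. The summed level of the 4 genes was 178 ± 1.62 CPM in overexpression and 179 ± 9.12 CPM in vector (SD, n = 3).

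PSMG4 lay at 30.5, 28.7 and 33.6 CPM in overexpression and 19.2, 29.9 and 19.4 CPM in vector. Vector replicate 2 alone overlapped the overexpression libraries, and without it PSMG4 was called higher (log2 fold change 0.67 against 0.43 with it, edgeR adjusted p = 0.000201 against 0.0682). PSMG4 shares 13.3% of its exon bases with SLC22A23 on the other strand, which had a log2 fold change of 0.50. The core chaperone POMP, which carries no PSM symbol, fell by 0.25 (edgeR adjusted p = 0.0049).

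Both genes of the activators that open the core without ATP and outside the interferon response were lower. PSME3 (PA28 gamma, a nuclear activator; chromosome 17, 42824385 to 42843758, plus strand) lay at 150, 149 and 160 CPM in overexpression and 240, 250 and 240 CPM in vector, a change of -0.67 ± 0.05 (edgeR adjusted p = 2.06e-05). PSME4 (PA200, known for histone degradation; chromosome 2, 53864067 to 53970840, minus strand) lay at 88.5, 83.6 and 76.5 CPM against 145, 136 and 145 CPM, a change of -0.78 ± 0.06 (edgeR adjusted p = 4.19e-05). PSMF1 (PI31, a proteasome-binding protein first described as an inhibitor) lay at 135, 138 and 139 CPM against 127, 130 and 121 CPM. The PSMF1 groups did not overlap, and the gene was not called (0.12 ± 0.05, edgeR adjusted p = 0.0621). It was called higher without vector replicate 2 (log2 fold change 0.14, edgeR adjusted p = 0.0135). The same held with upper-quartile factors (edgeR adjusted p = 0.0226), under the stricter filter (0.036), with values divided by 4 (0.0459) and with the GC and length trend removed (0.0179).

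Some of the proteasome genes lie in chromosome regions whose other genes were shifted as well. Each proteasome gene was set beside the median change of its nearest expressed protein-coding genes, up to 20 on either side. PSMB1, PSMD13, PSMF1, PSMG3 and PSMG4 had only 22 to 32 such neighbours, and the other genes tested had 40. These medians ran from -0.40 to 0.29, and in 5 genes, PSMA1 (-0.30), PSMB7 and PSMD5 on chromosome 9 (-0.40 and -0.31) and PSMD1 and PSMD14 on chromosome 2 (-0.40 and -0.33), they were 0.3 or more below 0. Over all 42 genes tested, 35 lay below their neighbours, with a median distance of -0.31. By class this median was -0.24 for the core, -0.65 for the ATPases, -0.44 for the other 19S genes and 0.06 for the further genes. The 27 genes called lower, which were chosen for their falls, all lay below, and of the 15 not called 8 did. Less the neighbours' median, the changes were -0.28 for PSMA1, -0.47 for PSMB7, -0.51 for PSMD1, -0.54 for PSMD14 and -0.53 for PSMD5. PSMD2, PSMC3 and PSMB2 lay among neighbours at 0.01, -0.01 and -0.02, and PSMC2 and PSME3 among neighbours at 0.25 and 0.22. Without the 5 genes in shifted regions, 22 of 37 genes were called lower and 0 higher, with a median of -0.34.

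**Figure D4:**
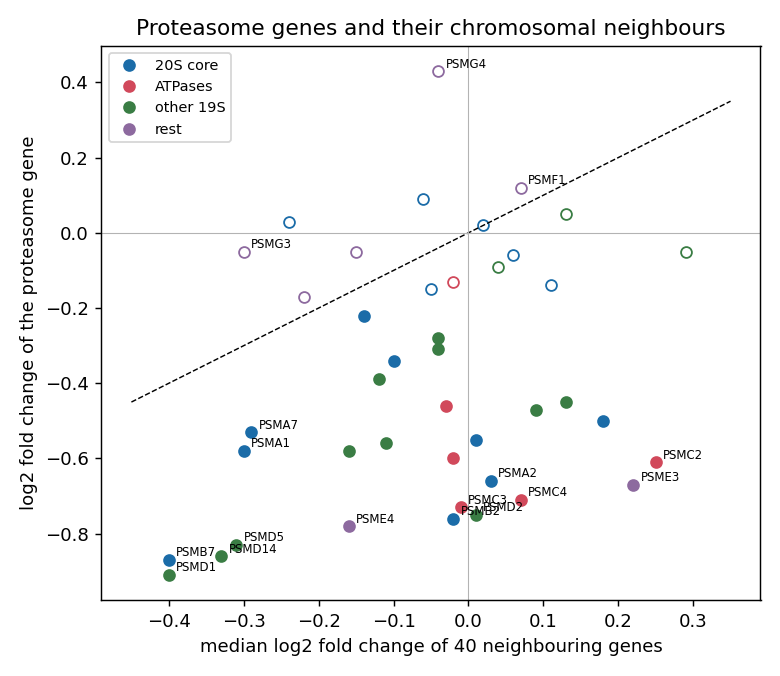
Log2 fold change of each proteasome gene against the median log2 fold change of up to 40 neighbouring expressed protein-coding genes. Filled points were called lower, open points were not called and the dashed line marks equal change. All 27 filled points lie below the line.

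Other properties of the genes were set beside their change. Over the 42 genes, Pearson's r of the log2 fold change was -0.48 with the log2 vector level, -0.29 with transcript length, 0.17 with GC content and 0.25 with the neighbours' median. The vector level is itself a term of the log2 fold change, so its r can fall below 0 by construction. The points share libraries and, in part, chromosome regions, and no test was made.

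Promoter windows from RefSeq (GRCh38.p14) were available for 37 of the 43 genes, and the 250 bases before each start were searched on both strands. The antioxidant response element core TGACNNNGC, to which NFE2L1 and its relatives bind with small MAF partners, was in 5 of 24 genes called lower (20.8%), in 5 of 12 not called (41.7%) and in 15.7% of 12146 tested genes with a window. The GCGGAAG or CCGGAAG letters of ETS factors were in 50% of the genes called lower, 66.7% of those not called and 26.1% of the tested genes. CCAAT, the NF-Y site, was in 45.8%, 50% and 40.7%, and the heat shock element core GAANNTTC in 0 of the 37 genes with a window against 5.84% of tested genes. Stretches outside annotated exons with the TGACNNNGC core in capitals are shown for 2 genes called lower, PSMD9 with 2 matches (chr12:121888615-121888675 and chr12:121888662-121888722, plus strand; the first match is the reverse complement) and PSMD12 (chr17:67366708-67366768, minus strand). PSMB3 (chr17:38752611-38752671, plus strand) is shown as a gene that was not called.
PSMD9 first match: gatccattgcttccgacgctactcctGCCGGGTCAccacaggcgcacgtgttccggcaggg
PSMD9 second match: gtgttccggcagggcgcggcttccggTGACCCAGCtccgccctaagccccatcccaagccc
PSMD12: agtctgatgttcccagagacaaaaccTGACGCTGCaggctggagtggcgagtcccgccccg
PSMB3: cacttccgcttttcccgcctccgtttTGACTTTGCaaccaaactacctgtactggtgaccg
The matches lay 149, 102, 165 and 104 bases before the start. A match describes letters and not binding, and the core was present in genes that were called and in genes that were not.

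Most listed genes that control proteasome transcription were called lower, but not NFE2L1 itself. Of 16 listed, 11 were lower and 2 higher (median -0.35). The corresponding shares were 23.4% and 22.6% of all genes tested, and 37.5% and 25% of the 9350 above. MAFF, which was not called, had a mean under 1000 estimated counts and is not among the 9350. NFE2L1 lay at 278, 281 and 280 CPM in overexpression and 222, 253 and 237 CPM in vector, a change of 0.24 ± 0.05 (edgeR adjusted p = 0.00703). NGLY1, the glycanase that processes the NFE2L1 protein, was higher too, at 92.4, 87.2 and 84.8 CPM against 65, 59.9 and 66.7 CPM (0.46 ± 0.06, edgeR adjusted p = 0.000432). DDI2, the protease that cleaves NFE2L1 into its active form, was lower, at 123, 118 and 117 CPM against 191, 197 and 197 CPM (-0.71 ± 0.04, edgeR adjusted p = 1.26e-05). So the 2 processing enzymes moved in opposite directions at the RNA level. The relative NFE2L3 lay at 25.1, 26.3 and 22.4 CPM against 49.1, 50.1 and 49.4 CPM (-1.01 ± 0.07, edgeR adjusted p = 2.44e-05), and the partner MAFG fell by 0.71 (edgeR adjusted p = 1.63e-05). NFE2L2 (NRF2) and the heat shock factor gene HSF1 fell by 0.45 and 0.52, the latter among neighbours with a median of -0.38. HSF2 was not called (-0.13 ± 0.08, edgeR adjusted p = 0.199), and was called lower without vector replicate 2 (-0.22, edgeR adjusted p = 0.00806). NFYA, among the 11 lower, changed by -0.14 ± 0.05 (edgeR adjusted p = 0.0352). That call was lost with upper-quartile factors (0.159), no filter (0.0618), the replicate block (0.076) and the GC and length trend removed (0.171). It was also lost without overexpression replicate 1 or 2 (0.122 and 0.138) and without vector replicate 1 or 3 (0.0506 and 0.0803). The NFYC call was lost without overexpression replicate 2 (0.0505).

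Of 16 genes of proteasome partners without a PSM symbol, 9 were lower and 3 higher (median -0.23). Over all genes tested 23.4% were lower and 22.6% higher, and over the 9350 above 37.5% and 25%. The deubiquitinases of the 19S particle, UCHL5 and USP14, fell by 0.63 and 0.55 (edgeR adjusted p = 7.37e-05 and 9.63e-05), and the clamp ECPAS by 0.52. ADRM1, the ubiquitin receptor at which UCHL5 docks, fell by 0.23, among neighbours with a median of -0.29. The genes of shuttle proteins, which carry ubiquitinated substrates, were not all called: RAD23B and UBQLN1 fell by 0.78 and 0.80 (edgeR adjusted p = 1.6e-05 and 2.16e-05), and UBQLN2 and UBQLN4 were not called. RAD23B, UBQLN1, ZFAND5 (a log2 fold change of -0.81, edgeR adjusted p = 1.53e-05) and ECPAS all lie on chromosome 9, among neighbours with medians of -0.52, -0.33, -0.27 and -0.51. ECPAS thus changed by the same amount as its neighbours. The assembly factor gene PAAF1 and AKIRIN2, whose product brings proteasomes into the nucleus, were higher, at 0.39 ± 0.07 and 0.31 ± 0.07 (edgeR adjusted p = 0.00199 and 0.00691). ZFAND2A, an arsenite-inducible zinc finger gene, was higher as well (0.37 ± 0.10, edgeR adjusted p = 0.0148), a call that was lost without overexpression replicate 3 (0.0549) and with the GC and length trend removed (0.0614).

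Upstream of the proteasome, 2 of 4 ubiquitin and E1 genes examined were lower (median -0.19) and 0 higher by edgeR. None was higher by DESeq2, by limma-voom or at an unadjusted p under 0.05. By edgeR, 23.4% of all genes tested and 37.5% of the 9350 above were lower. RPS27A, a ubiquitin and ribosomal protein fusion gene, fell by 0.47 (edgeR adjusted p = 0.00014), while the polyubiquitin gene UBB was not called (0.09 ± 0.07). The main E1 gene UBA1 was not called. The E1 gene UBA6 fell by 0.29 (edgeR adjusted p = 0.0141), a call that was lost without overexpression replicate 1 or 3 (0.0515 and 0.0581).

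VCP, the ATPase that extracts ubiquitinated proteins from membranes and complexes, lay at 265, 267 and 265 CPM in overexpression and 544, 495 and 556 CPM in vector. Its change of -1.0 ± 0.05 (edgeR adjusted p = 5.97e-06) stood among chromosome 9 neighbours at -0.33. Of the 11 genes of VCP and its cofactors 5 were lower and 5 higher (median -0.11). For all genes tested the shares were 23.4% and 22.6%, and for the 9350 above they were 37.5% and 25%. The cofactor genes YOD1, a deubiquitinase, and UFD1 fell by 0.86 and 0.36 (edgeR adjusted p = 0.000679 and 0.0015); YOD1 lies among neighbours at -0.44. UFD1 acts in a pair, and its binding partner NPLOC4 had a log2 fold change of 0.20 ± 0.04 (edgeR adjusted p = 0.00524). UBXN1, UBE4B and ASPSCR1 had log2 fold changes of 0.40 ± 0.04, 0.32 ± 0.05 and 0.58 ± 0.11 (edgeR adjusted p = 0.00017, 0.00111 and 0.00356), so cofactors of VCP were found on both sides. FAF1 was not called (-0.11 ± 0.07, edgeR adjusted p = 0.231), and was called lower without vector replicate 2 (-0.19, edgeR adjusted p = 0.00181).

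**Figure D5:**
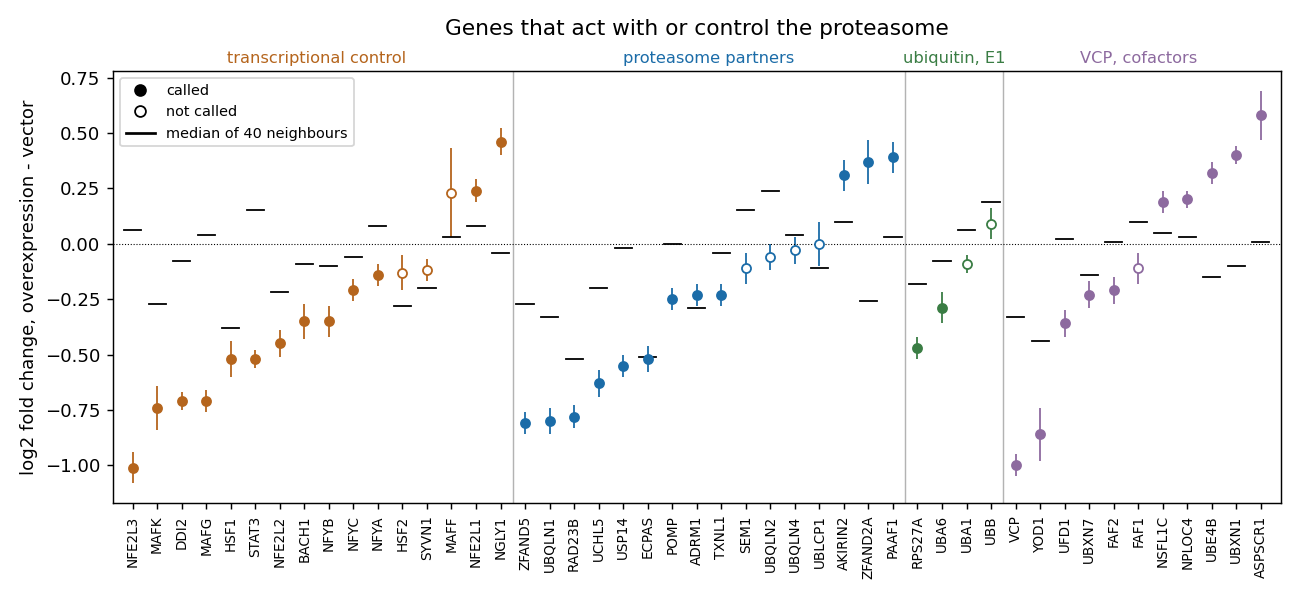
Log2 fold change with its SE of genes that control proteasome transcription, partner genes without a PSM symbol, ubiquitin and E1 genes, and VCP with its cofactors. Filled points were called in either direction, open points were not, and short black lines give the median change of up to 40 neighbouring genes. NFE2L1 lies at 0.24 and DDI2 at -0.71; VCP lies at -1.0 with its neighbours at -0.33.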

How the data were processed

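The authors deposited 1 table of estimated counts in whole numbers per gene symbol and library; library totals differ, so the values are unscaled. The submitters' processing notes name STAR 2.7.10a, fastp 0.23.2, DESeq2, StringTie and build hg38; annotation release and strand setting are not given in the sources used here. How many estimated counts 1 read pair adds is not known, so no counting interval is given. Genes passing edgeR's default expression filter were scaled by TMM and tested for group with edgeR 4.0.16 (R 4.3.3), quasi-likelihood method. P-values were adjusted over all 21055 genes; SEs come from the same F statistic. The fit was tested on simulated counts with the same dispersion for every gene. No simulated library stood apart as vector replicate 2 did, so that case was not tested. CPM values use TMM-adjusted library sizes. Levels per length used the principal transcript of GENCODE 29 (GRCh38, the assembly of hg38), which also gave positions, GC content and exon overlaps. Neighbours were up to 20 expressed protein-coding genes on either side, each averaging 100 estimated counts or more, proteasome genes left out.

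The members and lists were chosen with earlier results of these data known. Values in every library were to be given, per class, for up to 5 lower and 3 higher called genes with the smallest adjusted p, and for any gene changed 2-fold; from each list, up to 3 in each direction were to be named, and NFE2L1 in any case. PSMA4, PSMA6, PSMB4, PSMB5, PSMB6, PSMC5, PSMD4, PSMD8, PSMF1, PSMG4 and the other genes named beyond this were chosen after their values were seen. A few genes of the lists are not reported here, and list counts are without them. Alternatives were DESeq2 1.42.0, limma-voom (limma 3.58.1), DESeq2 size factors or upper-quartile factors, no filter, values divided by 4, a stricter filter (50 estimated counts and 1 CPM on average), a block for replicate number, removal of each library's trend with length and GC content (17175 of 21055 genes had both), neighbours subtracted, and each library left out. Leaving out the genes in shifted regions was chosen after seeing the data.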

Additional observations from a re-analysis of the deposited data

How the results depend on the processing

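Of the 27 proteasome genes called lower, 26 kept direction and call under all 15 refits; PSMA3 did not. Of the 15 not called, 8 stayed so; PSMA4, PSMB1, PSMB3, PSMC5, PSMD4, PSMF1 and PSMG4 were called under at least 1. The number called lower ran from 26 to 30, and none reversed. The number called higher, 0 in the reported fit, was 1 with DESeq2, upper-quartile factors, the stricter filter and values divided by 4, each time among the PSME, PSMF and PSMG genes, and 2 with the GC and length trend removed (1 of them, PSMA4, in the core and 1 among the PSME, PSMF and PSMG genes). Leaving out single libraries gave 0 to 2 higher over all classes and 0 to 2 among the PSME, PSMF and PSMG genes, 2 only without vector replicate 2. It gave medians from -0.53 to -0.40 over all classes. The core median of -0.34 was -0.44 with DESeq2, -0.43 with no filter (both of which let PSMB11 in), -0.44 with the GC and length trend removed and -0.22 without the genes in shifted regions, where the median over all classes was -0.34. The cause of the shift under the trend was not tested.

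With the replicate number as a block, 27 proteasome genes were lower and 0 higher, and 8690 genes were called in place of 9705. Same-numbered libraries did not deviate together (r = -0.035, 0.022 and 0.051), so the numbers were not taken as pairs. All proteasome genes tested except PSMA8 had over 1000 estimated counts on average. PSMA8 had 477 to 659, with an SE of 0.14, and PSMB11, which was not tested, had 0 to 7. How many read pairs these values stand for is not known.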
